A study of Mus musculus with 12 samples.

Results

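Mitosis genes are the genes whose products take a cell from the end of interphase through chromosome segregation to the division into daughter cells. A list of 45 of them was matched by gene symbol among the 50600 genes counted in each liver library. All 45 were found, and all 45 passed the filter on low counts that left 15219 genes to test. They were sorted by role into 7 groups: kinases and cyclins of mitotic entry with their regulators, spindle assembly, the kinetochore, the spindle checkpoint and anaphase, the chromosomal passenger complex, the central spindle and cytokinesis, and chromosome structure. The 12 libraries were polyA RNA sequencing of livers from Rosa26-LSL-dCas9-p300 mice, with 4 libraries in each of 3 groups. These mice carry at Rosa26 a nuclease-dead Cas9 fused to p300, a histone acetyltransferase, and LSL names a stop cassette in front of it that Cre recombinase removes. The source of Cre is not given in the sources used here. Mice of about 8 weeks received by tail vein either PBS or 1e+12 viral genomes of AAV.Cbh.gRNA, an adeno-associated virus, and livers were taken 2 weeks later. The virus carried a non-targeting control gRNA in one group and a gRNA to pdx1, a pancreatic transcription factor gene, in the other. PBS mice received no virus, so both comparisons with PBS take virus and gRNA together, while the comparison between the 2 gRNAs holds the virus dose equal.

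Entry into mitosis is driven by CDK1 bound to cyclin B, which sets off chromosome condensation and spindle assembly. Kinetochores then attach chromosomes to microtubules, the spindle checkpoint holds back the anaphase-promoting complex until all are attached, and the central spindle guides cytokinesis. Most genes of this programme are transcribed only late in the cell cycle, so their transcripts are scarce in tissues with few dividing cells. Adult hepatocytes are mostly quiescent, yet they can re-enter the cycle after injury and some of them copy their DNA without dividing.

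Total counts ran from 11824767 to 17870498 in the PBS libraries, from 16963079 to 22008046 after the control gRNA and from 13531769 to 18063529 after the Pdx1 gRNA. As a check of the labels, Pdx1 had 26, 32, 54 and 256 counts in the 4 Pdx1 gRNA libraries in ascending order, 2 counts in 1 control gRNA library and 0 in the other 7 libraries. PBS libraries 2 and 3 stood apart: the Y-linked Ddx3y had 97.3 and 84.8 CPM (counts scaled to library size after TMM normalization) there and at most 0.215 CPM elsewhere. Xist, transcribed from the inactive X chromosome, had 3.14 and 4.41 CPM there and 584 to 1443 CPM elsewhere. The labels do not give sex, but by these 2 genes those 2 libraries read as male and all others as female. Sex and treatment cannot be told apart in those 2 libraries. Each count that leads a comparison is therefore also given without them, among libraries that read as female. Hepatocyte markers were abundant in every library, with a sum of 54035 to 136970 CPM over 10 genes. The labels do not say that each library is a separate animal, so each p-value is set by the variation among libraries, which may be technical.

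Late cell cycle promoters are known for 2 short elements. The cell cycle genes homology region, or CHR, is bound by the MuvB complex together with B-Myb and FOXM1 or with the repressive p130 and E2F4, and the CCAAT box is bound by NF-Y. RefSeq promoter windows of one length (GRCm38.p6, 250 bases before the start site and 50 from it) matched 36 of the 45 genes. The 9 without a window were Ccna2, Aurkb, Kif20a, Spc24, Cdc25c, Tpx2, Foxm1, Incenp and Pbk. A CHR (TTTGAA, or TTTAAA, which is its own reverse complement, on either strand) was found in 29 of the 36 windows, 80.6%, beside 30.6% of the windows of all 27025 genes in the table. A CCAAT box on either strand was found in 27, 75%, beside 41.1%, and both were found in 25, 69.4%, beside 12.2%. Matches to the 2 motifs were counted separately, and a match describes letters, not a site shown to be bound.

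Promoters of 4 mitosis genes are shown, the first in order of mean FPKM that hold both elements whole within the bases printed. Fold change played no part in that choice. Ccnb2 and Cdc20 had log2 fold changes above 2 after the control gRNA, and Spc25 and Aurka had the smallest and one of the 4 smallest. Each sequence runs 5′ to 3′ along the gene's own strand, here the minus strand for all 4, from 250 bases before the RefSeq start to 30 bases from it, with CHR and CCAAT matches in capitals. Cdca3, whose CHR begins 30 bases after the start and so lies past the printed end, was passed over. The windows lie at chr9:70421525-70421804, chr4:118437314-118437593, chr2:69206184-69206463 and chr2:172370541-172370820 in the order listed.
Ccnb2: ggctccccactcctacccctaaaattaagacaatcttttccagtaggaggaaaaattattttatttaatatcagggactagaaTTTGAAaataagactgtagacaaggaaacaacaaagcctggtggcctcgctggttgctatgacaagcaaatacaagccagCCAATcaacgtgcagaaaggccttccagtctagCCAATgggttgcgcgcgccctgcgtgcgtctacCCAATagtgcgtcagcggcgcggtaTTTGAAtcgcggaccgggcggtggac
Cdc20: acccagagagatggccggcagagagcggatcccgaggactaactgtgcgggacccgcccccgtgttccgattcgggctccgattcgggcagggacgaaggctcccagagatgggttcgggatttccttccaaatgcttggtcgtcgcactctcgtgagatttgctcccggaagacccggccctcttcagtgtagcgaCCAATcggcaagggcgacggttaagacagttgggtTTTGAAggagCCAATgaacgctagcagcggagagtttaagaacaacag
Spc25: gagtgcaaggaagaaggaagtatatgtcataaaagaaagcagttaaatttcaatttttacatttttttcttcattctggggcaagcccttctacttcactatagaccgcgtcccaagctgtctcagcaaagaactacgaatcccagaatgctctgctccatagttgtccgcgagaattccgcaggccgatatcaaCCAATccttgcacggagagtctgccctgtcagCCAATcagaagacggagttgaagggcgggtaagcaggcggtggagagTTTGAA
Aurka: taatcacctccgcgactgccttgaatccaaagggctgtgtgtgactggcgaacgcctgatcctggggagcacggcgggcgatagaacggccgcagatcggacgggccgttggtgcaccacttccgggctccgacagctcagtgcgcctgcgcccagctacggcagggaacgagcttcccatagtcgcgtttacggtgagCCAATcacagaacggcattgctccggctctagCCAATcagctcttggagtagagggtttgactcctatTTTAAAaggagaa

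All 4 had CCAAT boxes upstream of a CHR or beside it. In Ccnb2 the 3 CCAAT boxes lay between 2 TTTGAA elements that began 167 bases before the start and 4 bases after it. In Cdc20 a TTTGAA began 18 bases before the start, between 2 CCAAT boxes. Spc25 and Aurka each had 2 CCAAT boxes followed by a CHR. It was TTTGAA beginning 24 bases after the start in Spc25 and TTTAAA 17 bases after it in Aurka. Aurka also had a TTTGAA beginning 32 bases after the start, past the printed end.

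Across the 36 windows the CHR elements clustered at the start site and the CCAAT boxes lay upstream of them. The median first base was -1.5 for 42 CHR elements and -67.5 for 64 CCAAT boxes, and 19 genes had 2 or more CCAAT boxes. A CHR began between -60 and 40 in 26 genes, 72.2% of those matched, beside 10.2% of all promoters; those bounds were chosen after the positions were seen. Bub1, Mad2l1, Nuf2, Nusap1, Ncaph, Nek2 and Melk had no CHR anywhere in their windows, and in Kif2c, Mki67 and Birc5 each CHR began further upstream than these bounds.

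**Figure D1:**
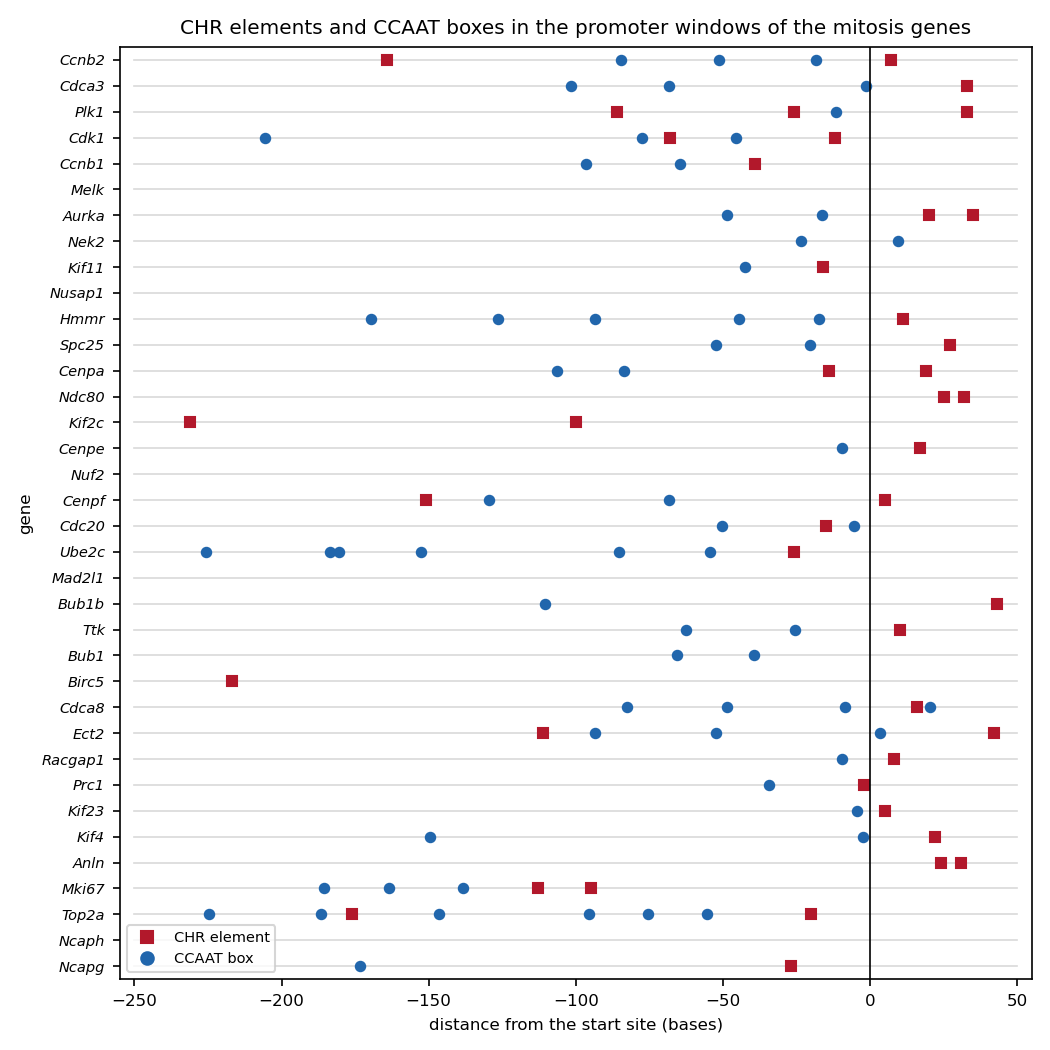
Positions of CHR elements (squares) and CCAAT boxes (circles) in the promoter windows of the 36 mitosis genes with a RefSeq window; the x axis is the distance from the start site in bases and each line is 1 gene. The CHR elements gather around the start site, with a median of -1.5, and most CCAAT boxes lie upstream, with a median of -67.5.

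After PBS the mitosis genes were low. Their median level was 0.372 FPKM (CPM per kilobase of exon, used here to set genes side by side), and 7 of the 45 had a mean of at least 1 FPKM. That number was 32 after the control gRNA and 29 after the Pdx1 gRNA, with medians of 1.44 and 1.19 FPKM. Spc24, a subunit of the NDC80 kinetochore complex, had the highest level in each group, 6.96 ± 1.77, 12.9 ± 2.92 and 11.3 ± 3.82 FPKM (mean ± SD, n = 4 libraries). Ccnb2 and Cdc20 had the next highest levels in both virus groups, 8.98 and 7.99 FPKM after the control gRNA. The lowest level after PBS was that of Melk, 0.0703 FPKM.

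Control gRNA virus was compared with PBS, at the same time after injection, to see the difference that went with virus and a gRNA without a target. Whether Cre also differed between these groups is not known, since its source is not given. Every mitosis gene had more transcript after the control gRNA, and 42 of 45 rose: the test called 42 higher, 0 lower and 3 in neither direction. Changes of single genes are given here on the log2 scale. Among all genes tested 16.3% were called higher and 15.8% lower. The log2 fold changes of the 45 ran from 0.72 for Spc25 to 3.42 for Melk with a median of 2.11, where the median of all genes was -0.01, and 28 were 2 or more. Positive values were found for 45 of 45 mitosis genes and for 49.5% of all genes.

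Summed over the 45 genes, the PBS libraries had 104, 69.9, 76.8 and 199 CPM, the control gRNA libraries 533, 270, 434 and 355 CPM and the Pdx1 gRNA libraries 408, 267, 303 and 316 CPM. The group means were 112 ± 59.7, 398 ± 112 and 323 ± 59.8 CPM (SD, n = 4), and the lowest virus library was 1.34 times the highest PBS library. The control gRNA mean was 3.54 times the PBS mean, 2.63 times without PBS libraries 2 and 3, and 2.00 times PBS library 4 alone. In bulk liver, fewer cells of a type and less RNA per cell cannot be told apart, so these sums do not tell how many cells were dividing.

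Fewer genes were called without the PBS libraries that stood apart, a setting that also makes the PBS group smaller. The part of each in the lower number was not tested. Without PBS libraries 2 and 3, 19 mitosis genes were called higher and 0 lower (6.91% of all genes were called higher), the median log2 fold change was 1.49, and all 45 values stayed positive. All 4 control gRNA libraries lay above all 4 PBS libraries for 32 of the 45 genes, where 16.5% of all genes did so, and for 32 without those libraries, where 21.4% did.

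**Figure D2:**
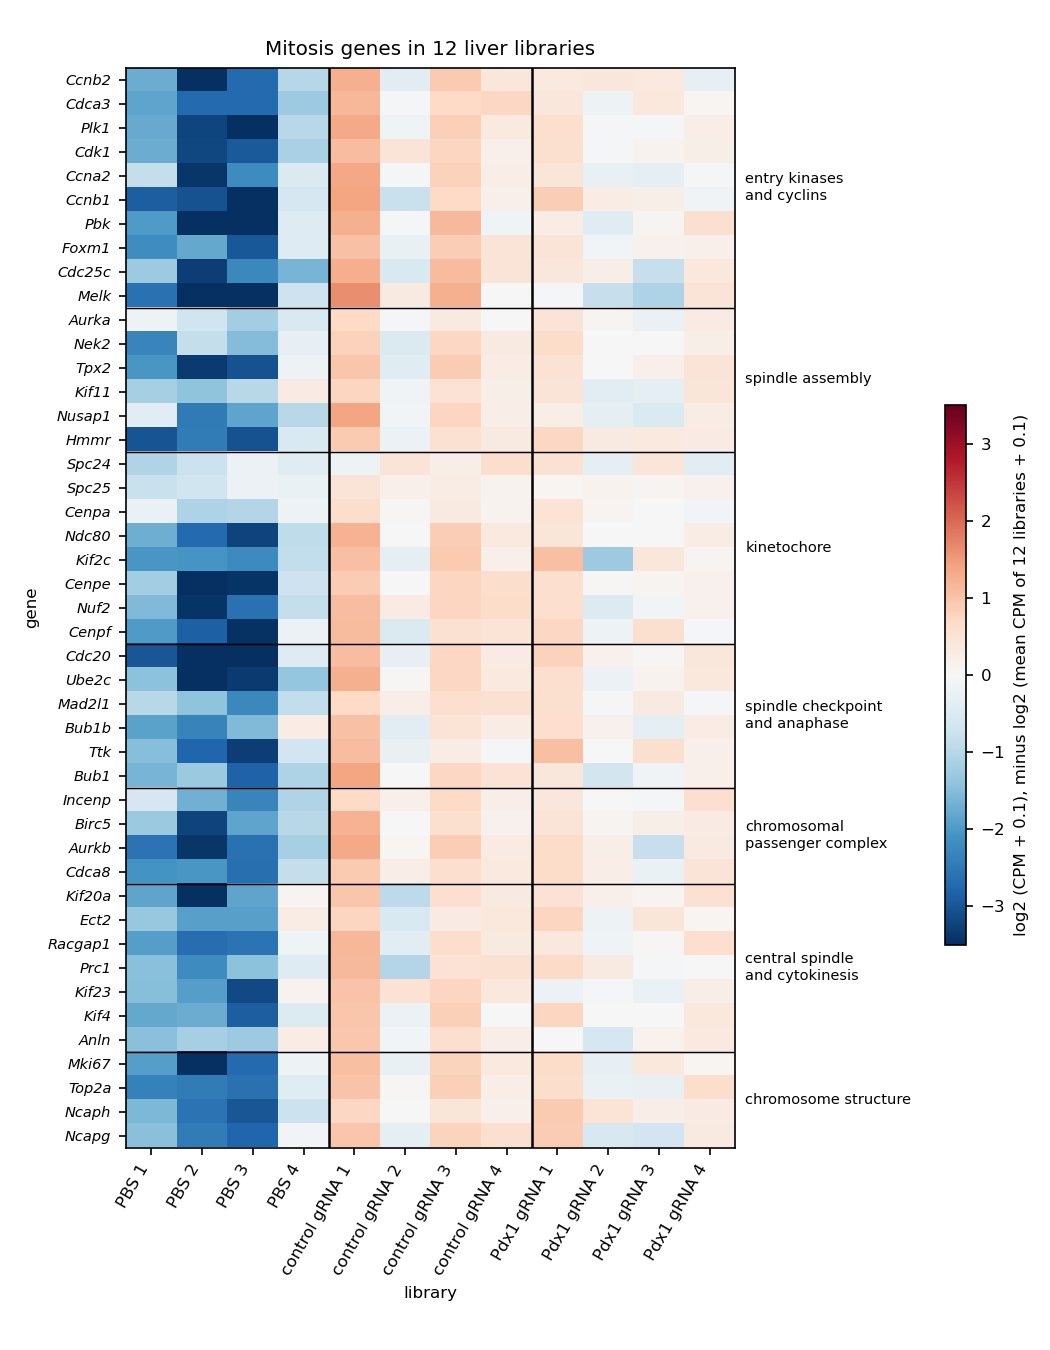
Each row is a mitosis gene, ordered by role and level, and each column a library; colour is log2 of CPM + 0.1 minus log2 of the gene's mean CPM over 12 libraries + 0.1, with the scale ending at -3.5 and 3.5. PBS libraries 2 and 3 are the lowest for 20 and 21 of the genes, PBS library 4 lies between them and the virus libraries in summed level, and control gRNA library 1 is the highest of the 12 libraries for 42 of the 45 genes.

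The kinases and cyclins of mitotic entry rose as a whole after the control gRNA, 10 of 10 genes, with a median log2 fold change of 2.67. Without PBS libraries 2 and 3, 7 were called. Gene coordinates are those of the deposited GRCm38 annotation. Cdk1 (chr10:69335146-69352938), the kinase that starts mitosis, had 2.28, 0.76, 0.922 and 3.51 CPM in PBS libraries 1 to 4, 16.6, 10.6, 13 and 8.87 CPM after the control gRNA and 11.4, 7.59, 8.46 and 9.04 CPM after the Pdx1 gRNA. Ccnb2 (chr9:70407692-70421547), which encodes cyclin B2, had 2.52, 0.38, 1.23 and 4.29 CPM in PBS libraries 1 to 4, 20.5, 6.52, 16.5 and 11.4 CPM after the control gRNA and 11, 11.4, 11 and 7.06 CPM after the Pdx1 gRNA. Cdca3 (chr6:124829547-124833701), whose product helps to remove the CDK1 inhibitor WEE1, had 2.88, 1.52, 1.54 and 4.36 CPM in PBS libraries 1 to 4, 24, 10.2, 17.5 and 17.7 CPM after the control gRNA and 14, 9.36, 13.9 and 11.2 CPM after the Pdx1 gRNA. For all 3 genes every virus library lay above every PBS library, and PBS library 4 was the highest of its group. Foxm1 (chr6:128362967-128376146), a transcription factor of late cell cycle genes, had 0.779, 1.05, 0.41 and 2.79 CPM in PBS libraries 1 to 4, 7.98, 3.23, 7.12 and 5.26 CPM after the control gRNA and 5.33, 3.61, 4.31 and 4.42 CPM after the Pdx1 gRNA, again without overlap between virus and PBS libraries. The log2 fold changes after the control gRNA were 2.68 ± 0.40 (SE, edgeR adjusted p = 7.09e-04) for Cdk1, 2.73 ± 0.35 (SE, edgeR adjusted p = 3.43e-04) for Cdca3, 2.66 ± 0.52 (SE, edgeR adjusted p = 0.00282) for Ccnb2 and 2.20 ± 0.47 (SE, edgeR adjusted p = 0.00432) for Foxm1. Melk, a kinase gene of cycling cells, had the largest log2 fold change of the 45, 3.42 ± 0.80 (SE, edgeR adjusted p = 0.00706), from 0.12, 0, 0 and 0.715 CPM in the PBS libraries. Values for the other 5 entry genes were 3.11 for Cdc25c, the phosphatase that activates CDK1, 2.84 for the kinase gene Plk1, 2.66 for cyclin B1, 2.65 for the kinase gene Pbk and 2.05 for cyclin A2, all called.

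Genes of spindle assembly moved less: 5 of 6 rose, with a median log2 fold change of 1.70, and 0 were called without PBS libraries 2 and 3. Nek2 (chr1:191821444-191833050), a kinase that separates centrosomes, had 1.8, 5.23, 3.18 and 7.58 CPM in PBS libraries 1 to 4, 16.3, 6.63, 15.6 and 11.6 CPM after the control gRNA and 14.8, 9.43, 9.37 and 10.8 CPM after the Pdx1 gRNA. Tpx2 (chr2:152847964-152895321), which activates Aurora A on spindle microtubules, had 1.56, 0.57, 0.717 and 5.94 CPM in PBS libraries 1 to 4, 13.2, 5.01, 12.5 and 8.04 CPM after the control gRNA and 9.53, 6.78, 7.55 and 9.25 CPM after the Pdx1 gRNA. In both genes PBS library 4 lay above control gRNA library 2 and below every other virus library. The log2 fold changes were 1.5 ± 0.39 (SE, edgeR adjusted p = 0.0125) for Nek2 and 2.10 ± 0.57 (SE, edgeR adjusted p = 0.0152) for Tpx2. Hmmr and Nusap1, which encode microtubule-binding proteins, rose by 2.37 and 1.91, and Aurka, the Aurora A kinase gene, by 0.89. Kif11, the motor that pushes spindle poles apart, had 1.02 ± 0.38 (SE, edgeR adjusted p = 0.0568) and did not pass.

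All 8 kinetochore genes rose, with a median log2 fold change of 2.22, and 4 were called without PBS libraries 2 and 3. Within this group the values split. Ndc80 and Nuf2, partners in the complex that grips microtubules, rose by 2.69 and 2.57, while the other 2 subunits of that complex, Spc24 and Spc25, rose by 0.89 and 0.72. Spc24 (chr9:21755442-21760303) had 12.9, 15.7, 23.3 and 19.8 CPM in PBS libraries 1 to 4, 23.7, 36.7, 31 and 41 CPM after the control gRNA and 39, 20.9, 36 and 20.4 CPM after the Pdx1 gRNA, so the lowest control gRNA library lay just above the highest PBS library and 2 Pdx1 gRNA libraries lay below that PBS library. Cenpa (chr5:30666777-30674830), the histone variant that marks centromeres, had 11.3, 6.18, 6.35 and 11.5 CPM in PBS libraries 1 to 4, 20.1, 13.6, 16.5 and 14.4 CPM after the control gRNA and 18.4, 13.9, 12.9 and 12.4 CPM after the Pdx1 gRNA, with every virus library above every PBS library. Its log2 fold change was 0.86 ± 0.24 (SE, edgeR adjusted p = 0.0152), that of Spc24 0.89 ± 0.26 (SE, edgeR adjusted p = 0.0211) and that of Spc25 0.72 ± 0.17 (SE, edgeR adjusted p = 0.00797). Kif2c, a motor that removes faulty microtubule attachments, Cenpe, a motor that carries chromosomes to the spindle equator, and Cenpf, a protein of the outer kinetochore, rose by 2.37, 2.33 and 2.10. Spc24, Spc25, Aurka and Cenpa were the 4 mitosis genes with at least 1.5 FPKM after PBS and also had the 4 smallest log2 fold changes, 0.72 to 0.89, against 1.02 to 3.42 for the other 41. That bound lies just below Cenpa, at 1.51 FPKM. The next highest levels after PBS were those of Ccnb2, Cdc20 and Incenp, at 1.38, 1.34 and 1.22 FPKM. Their log2 fold changes were 2.66, 2.54 and 1.74, so the order did not continue below the bound. A fold change contains the PBS level, so this order is a description, with no test.

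The 6 genes of the spindle checkpoint and anaphase all rose, with a median log2 fold change of 2.35, and 3 were called without PBS libraries 2 and 3. Mad2l1 (chr6:66535390-66547220), a checkpoint protein that holds back CDC20, had 6.41, 4.66, 2.56 and 6.87 CPM in PBS libraries 1 to 4, 20.4, 14.7, 18.9 and 18.5 CPM after the control gRNA and 18.6, 12.1, 15.6 and 12.3 CPM after the Pdx1 gRNA. Its groups were well apart, the lowest control gRNA library being 2.14 times the highest PBS library. Cdc20 (chr4:118432901-118437352), the activator of the anaphase-promoting complex, had 1.2, 0.76, 0.512 and 7.51 CPM in PBS libraries 1 to 4, 21.8, 8.35, 17 and 12.6 CPM after the control gRNA and 18, 11.4, 10.7 and 13.5 CPM after the Pdx1 gRNA. Here 3 PBS libraries were low, PBS library 4 was far above them, and control gRNA library 2 was only slightly higher than PBS library 4. The log2 fold changes were 1.80 ± 0.26 (SE, edgeR adjusted p = 6.72e-04) for Mad2l1 and 2.54 ± 0.64 (SE, edgeR adjusted p = 0.0109) for Cdc20, the larger change having the larger error. Ube2c, the ubiquitin-conjugating enzyme of that complex, rose by 2.77, although 22.8% of its exon bases also belong to Tnnc2 and the counting did not use strand. The checkpoint kinase genes Bub1, Ttk and Bub1b rose by 2.54, 2.16 and 1.45.

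All 4 genes of the chromosomal passenger complex, which corrects attachments and then moves to the central spindle, rose, and all 4 were also called without PBS libraries 2 and 3. Their median log2 fold change was 2.26. Incenp (chr19:9872297-9899533), the scaffold of the complex, had 6.35, 2.95, 1.84 and 4.58 CPM in PBS libraries 1 to 4, 15.7, 10.8, 15.6 and 11.2 CPM after the control gRNA and 12.6, 9.73, 9.29 and 14.6 CPM after the Pdx1 gRNA. Birc5 (chr11:117849251-117855743), which encodes survivin, had 2.88, 0.665, 1.95 and 3.65 CPM in PBS libraries 1 to 4, 16.8, 7.15, 10.7 and 7.98 CPM after the control gRNA and 9.94, 7.67, 8.31 and 8.79 CPM after the Pdx1 gRNA. Neither gene overlapped between virus and PBS libraries. The log2 fold changes were 1.74 ± 0.32 (SE, edgeR adjusted p = 0.00201) for Incenp and 2.19 ± 0.40 (SE, edgeR adjusted p = 0.00199) for Birc5. The kinase gene Aurkb rose by 3.06 ± 0.52 (SE, edgeR adjusted p = 0.00143), from 0.42, 0.19, 0.41 and 1.29 CPM in PBS libraries to 7.69, 3.13, 5.54 and 3.66 CPM, and Cdca8, which encodes borealin, by 2.33 ± 0.37 (SE, edgeR adjusted p = 9.13e-04).

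The 7 genes of the central spindle and cytokinesis had a median log2 fold change of 1.77; 5 rose, and 0 were called without PBS libraries 2 and 3. Racgap1 (chr15:99620496-99651656), part of the centralspindlin complex, had 1.5, 0.855, 0.922 and 5.37 CPM in PBS libraries 1 to 4, 13.6, 4.54, 9.18 and 7.43 CPM after the control gRNA and 7.77, 5.38, 6.12 and 9.09 CPM after the Pdx1 gRNA. Ect2 (chr3:27097222-27153878), which activates RhoA at the cleavage furrow, had 1.86, 1.24, 1.23 and 5.8 CPM in PBS libraries 1 to 4, 8.28, 3.34, 5.92 and 6.32 CPM after the control gRNA and 8.29, 4.27, 6.5 and 5.13 CPM after the Pdx1 gRNA. In both genes PBS library 4 stood above the other 3 PBS libraries and above control gRNA library 2, and for Ect2 it also lay above Pdx1 gRNA libraries 2 and 4. Racgap1 rose by 1.98 ± 0.52 (SE, edgeR adjusted p = 0.0129), whereas Ect2 had 1.22 ± 0.47 (SE, edgeR adjusted p = 0.0629) and did not pass. Kif20a, a motor of the central spindle, had 1.63 ± 0.59 (SE, edgeR adjusted p = 0.0508) and did not pass either; 33.2% of its exon bases also belong to Cdc23. Kif4 and Kif23, motors of the central spindle, and Prc1, which bundles its microtubules, rose by 2.06, 1.84 and 1.77, and Anln, an actin-binding scaffold of the furrow, by 1.23. Of the 13 mitosis genes in which PBS and control gRNA libraries overlapped, 5 belonged to this group, and in all 13 the overlap came from PBS library 4.

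The 4 genes of chromosome structure rose after the control gRNA, with a median log2 fold change of 2.09, and 1 was called without PBS libraries 2 and 3. Top2a (chr11:98992943-99024189), the topoisomerase that untangles sister chromatids, had 2.34, 2.19, 1.95 and 9.16 CPM in PBS libraries 1 to 4, 24.8, 12.7, 21.9 and 14.6 CPM after the control gRNA and 18.9, 10.5, 10.3 and 19 CPM after the Pdx1 gRNA. PBS libraries 1 to 3 were alike and PBS library 4 lay between them and the virus libraries. Mki67 (chr7:135689784-135716361), which encodes Ki-67, a proliferation marker that coats mitotic chromosomes, had 4.86, 1.52, 2.77 and 16.5 CPM in PBS libraries 1 to 4, 38.8, 15.5, 32.1 and 23.8 CPM after the control gRNA and 29.4, 15.4, 24.2 and 19.5 CPM after the Pdx1 gRNA. Here PBS library 4 exceeded 1 library of each virus group. The log2 fold changes were 2.23 ± 0.47 (SE, edgeR adjusted p = 0.00427) for Top2a and 2.08 ± 0.57 (SE, edgeR adjusted p = 0.0156) for Mki67. The condensin subunit genes Ncaph and Ncapg rose by 2.11 and 1.94.

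**Figure D3:**
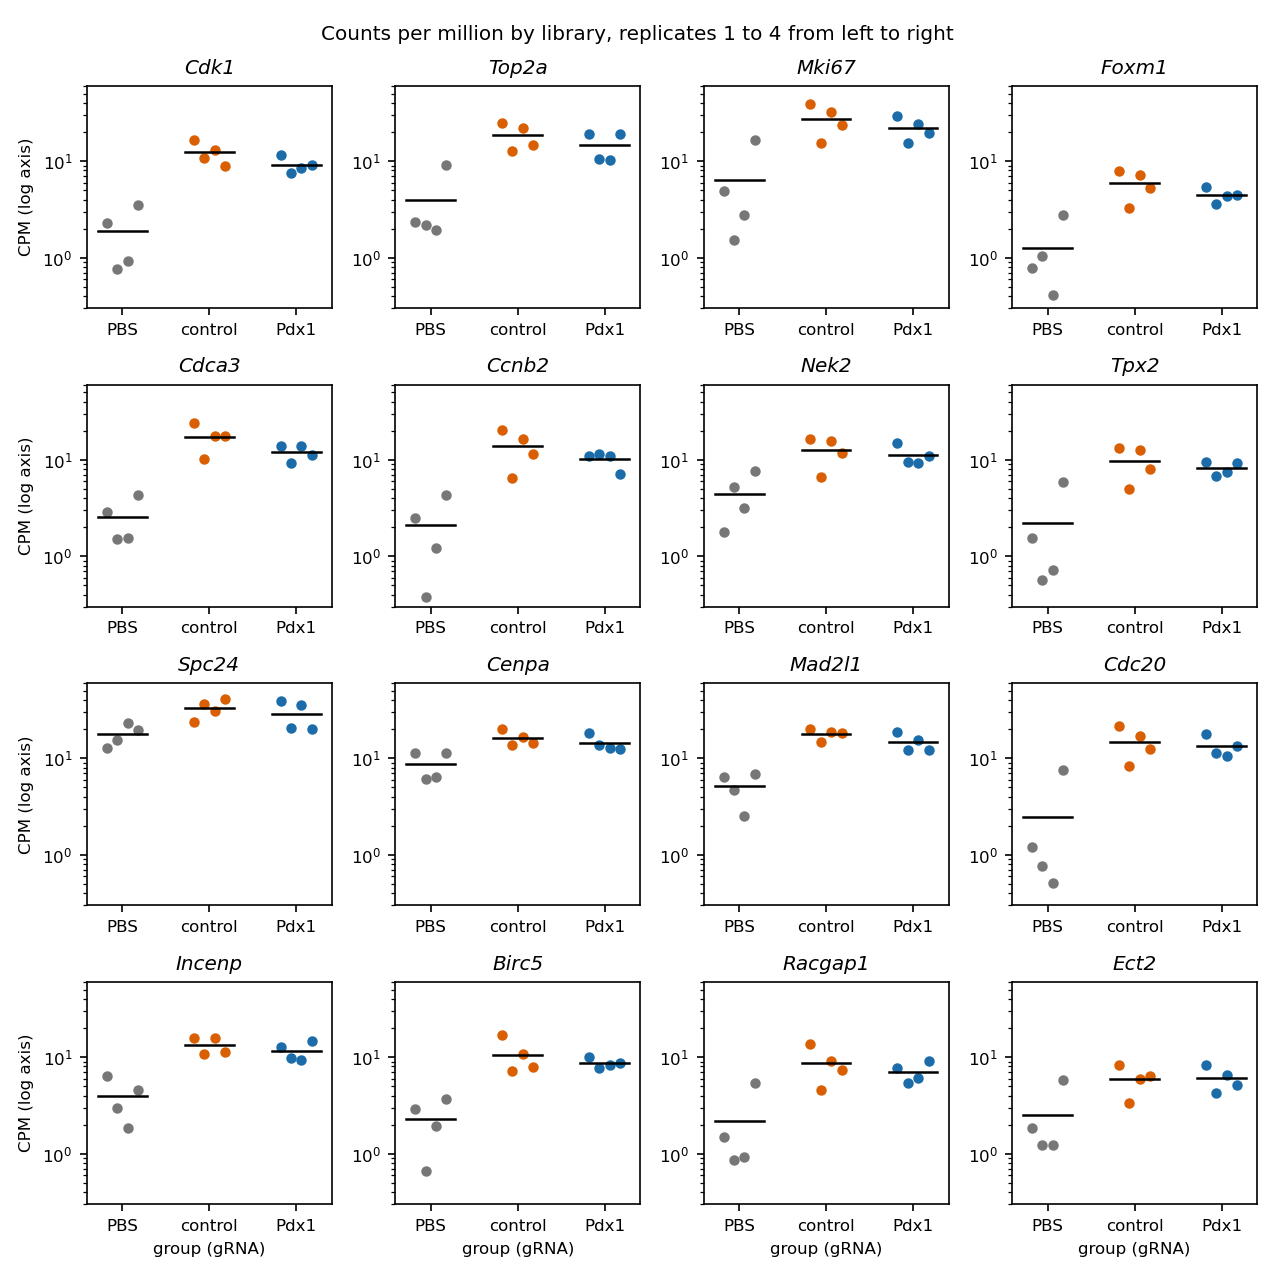
CPM of 16 mitosis genes in each library on a log axis, by group; points are replicates 1 to 4 from left to right and bars are group means of 4 libraries. The PBS points are the lowest in most panels, the fourth PBS point stands above the others for Top2a, Cdc20, Racgap1 and Ect2, and Spc24 shows the highest PBS points, 12.9 to 23.3 CPM.

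With the Pdx1 gRNA in place of the control gRNA the picture against PBS was alike in direction. The mitosis genes rose in 32 of 45 cases and fell in 0, where 11.7% of all genes were called higher and 10.4% lower. Their median log2 fold change was 1.89, from 0.56 for Spc25 to 2.52 for Aurkb, with all 45 positive, beside 46.2% of all genes, and a median of -0.06 over all genes. The PBS libraries are the same as in the comparison above, so the 2 sets of calls are not independent.

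Called genes numbered 7 of 10 entry kinases and cyclins, 4 of 6 spindle assembly genes, 6 of 8 kinetochore genes, 5 of 6 checkpoint and anaphase genes, 4 of 4 passenger complex genes, 3 of 7 central spindle and cytokinesis genes and 3 of 4 chromosome structure genes. The 4 with the smallest p-values among those printed by library were Cdca3, 2.20 ± 0.34 (SE, edgeR adjusted p = 0.00141), Cdk1, 2.25 ± 0.39 (SE, edgeR adjusted p = 0.00239), Mad2l1, 1.5 ± 0.26 (SE, edgeR adjusted p = 0.00245), and Incenp, 1.53 ± 0.32 (SE, edgeR adjusted p = 0.00584). Large changes with wider errors were seen for Aurkb, 2.52 ± 0.52 (SE, edgeR adjusted p = 0.00592), and Cdc20, 2.38 ± 0.64 (SE, edgeR adjusted p = 0.0208). Among further members, Cdca8 rose by 2.10 ± 0.37 (SE, edgeR adjusted p = 0.00237), Ncaph by 2.26 ± 0.42 (SE, edgeR adjusted p = 0.00346) and Ube2c by 2.37 ± 0.48 (SE, edgeR adjusted p = 0.00532). The remaining genes printed by library rose by 2.21 (Ccnb2), 1.78 (Foxm1), 1.32 (Nek2), 1.88 (Tpx2), 1.90 (Birc5), 1.69 (Racgap1), 1.89 (Top2a) and 1.76 (Mki67).

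The 13 that did not pass had positive values too. They were Melk (2.17), Pbk (2.11), Kif20a (1.59), Ncapg (1.5), Ccna2 (1.33), Ect2 (1.24), Bub1b (1.23), Nusap1 (1.15), Kif23 (1.09), Kif11 (0.75), Anln (0.75), Spc24 (0.70) and Cenpa (0.70), with edgeR adjusted p-values from 0.0501 for Cenpa to 0.21 for Anln. Melk had 1.19, 0.663, 0.529 and 1.73 CPM after the Pdx1 gRNA and 4.07, 1.57, 3.1 and 1.22 CPM after the control gRNA, so 2 of the former lay below PBS library 4 at 0.715 CPM. All 32 genes called with the Pdx1 gRNA were also called with the control gRNA, and Kif11, Kif20a and Ect2 were called with neither.

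The number of calls depended on which PBS libraries were kept, and leaving any out also makes that group smaller. Without PBS libraries 2 and 3, 9 genes were called higher and 0 lower (4.5% of all genes were called higher) with a median log2 fold change of 1.28, and without PBS library 2 alone 20 were called. All 4 Pdx1 gRNA libraries lay above all 4 PBS libraries for 32 of the 45 genes, beside 12.7% of all genes, and for 33 without PBS libraries 2 and 3, beside 18%.

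**Figure D4:**
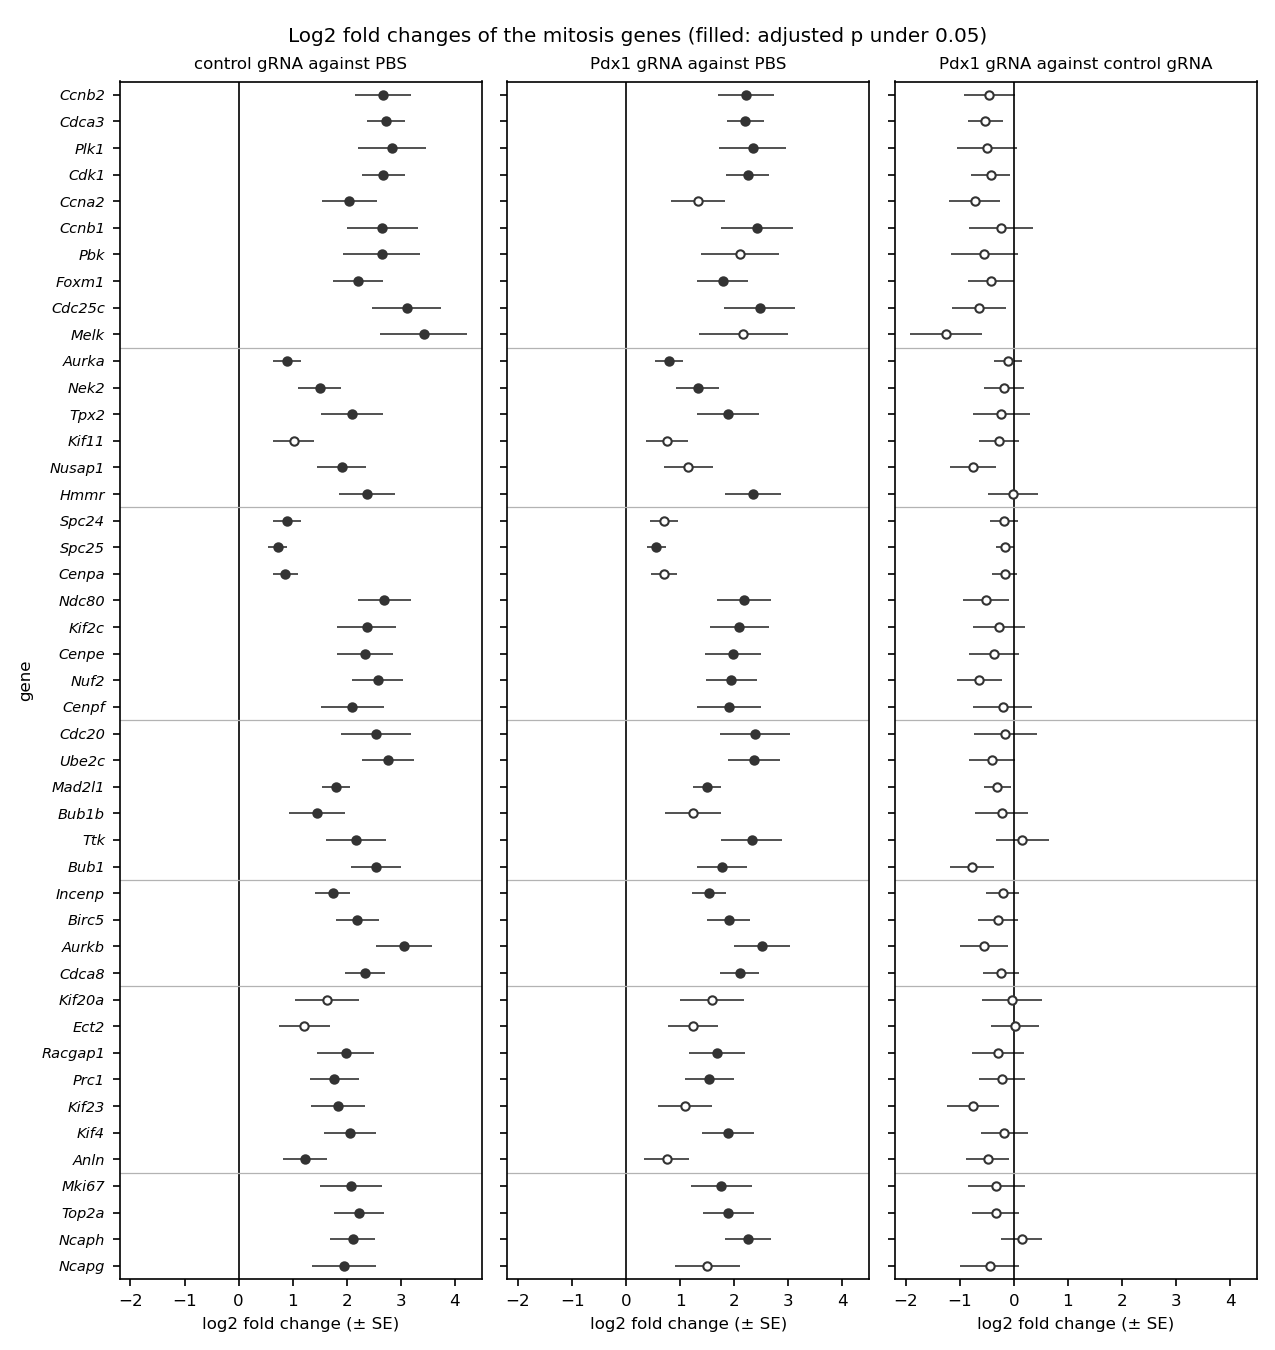
Log2 fold changes of the 45 mitosis genes with bars of 1 standard error in the 3 comparisons, ordered by role and level; filled points have an adjusted p under 0.05 in edgeR's quasi-likelihood test. All points lie right of 0 against PBS, with 42 and 32 filled, and between the gRNAs 42 of 45 lie left of 0 with none filled.

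Between the 2 gRNAs, which were given at the same virus dose, no mitosis gene passed the test. edgeR called 0 higher and 0 lower, as it did for all 15219 genes (0%), and 0 of the 45 had an unadjusted p under 0.05, where 3.8% of all genes were lower at that level. Pdx1, the target of the gRNA, was not called either, with a log2 fold change of 7.42 ± 1.11 (SE, edgeR adjusted p = 0.444). DESeq2 and limma-voom called 0 of the 45 as well, DESeq2 calling 6 genes higher and 8 lower among all genes (0.0394% and 0.0526%). The values were mostly below 0: 42 of the 45 were negative, beside 50.9% of all genes, with a median of -0.30 where the median of all genes was -0.01. Ncaph, Ttk and Ect2 were above 0, at 0.15, 0.16 and 0.02, and Ect2 was at -0.04 with upper-quartile scaling.

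Estimates for single genes were imprecise at this size. Melk had the most negative log2 fold change, -1.25 ± 0.66 (SE, edgeR adjusted p = 0.829), followed by Bub1 with -0.77 ± 0.40 (SE, edgeR adjusted p = 0.829). Cdk1 had -0.43 ± 0.36 (SE, edgeR adjusted p = 0.877), Mki67 -0.32 ± 0.53 (SE, edgeR adjusted p = 0.937), Top2a -0.33 ± 0.44 (SE, edgeR adjusted p = 0.916) and Foxm1 -0.42 ± 0.43 (SE, edgeR adjusted p = 0.896). The 2 groups were fully apart for 1 of the 45 genes, Kif23, named after its values were seen, where 3.17% of all genes were lower without overlap. It had 7.24, 5.06, 6.04 and 4.6 CPM after the control gRNA and 3.06, 3.39, 3.02 and 4.11 CPM after the Pdx1 gRNA, a log2 fold change of -0.76 ± 0.48 (SE, edgeR adjusted p = 0.846). The Pdx1 gRNA mean of the summed CPM was 0.812 times the control gRNA mean, and 3 of the 4 Pdx1 gRNA libraries lay within the range of the control gRNA libraries. A p-value above the threshold does not show that the 2 gRNAs gave the same levels. Leaving out control gRNA library 1, the highest library, moved the median to -0.09.

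The libraries ranked in much the same order for gene after gene. Control gRNA library 1 was the highest of the 12 for 42 of the 45 mitosis genes, as it was for 9.95% of all genes. The lowest library was PBS library 3 for 21 genes, PBS library 2 for 20 and PBS library 1 for 4, and no virus library was the lowest for any of them. Control gRNA libraries 1 and 3 both exceeded 2 and 4 for 41 genes (24.1% of all genes), and library 2 was the lowest of its group for 39. Within the Pdx1 gRNA group library 1 was highest for 34.

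PBS library 4 was the highest PBS library for 39 of the 45 (23.8% of all genes), and PBS libraries 1 and 4 both exceeded 2 and 3 for 33 (22.1%). The sum in PBS library 4 was 2.72 times the mean of PBS libraries 2 and 3, and the sum in PBS library 1 was 1.41 times that mean. The central spindle and cytokinesis genes had summed levels of 28.3 CPM in PBS library 4 and 6.08 to 8.87 CPM in the other 3. In 4 mitosis genes at least 1 PBS library had 0 counts, and no virus library had 0 counts in any.

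Markers of other cells moved with some of these libraries, and their part in the results was not tested. Of 10 hepatocyte markers, 8 fell after the control gRNA and 4 after the Pdx1 gRNA, beside 15.8% and 10.4% of all genes called lower. Without PBS libraries 2 and 3 the calls were 1 and 0, while the median log2 fold changes were -0.99 and -0.78, beside -1.13 and -0.77 with all libraries. Hepatocyte marker sums were 99095 to 136970 CPM after PBS, 55902 to 75376 CPM after the control gRNA and 54035 to 110590 CPM after the Pdx1 gRNA. Of 7 cholangiocyte markers, 6 of them testable, 4 rose after the control gRNA and 0 after the Pdx1 gRNA, with sums of 24.6 to 71.1, 60.05 to 410 and 46.9 to 105 CPM, the highest in control gRNA library 1, where the mitosis genes were also highest. That library had the highest sum of 8 stellate cell and fibroblast markers as well, 745 CPM.

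Dividing immune cells also express mitosis genes, so their markers are given beside them. Sums over 11 macrophage and monocyte markers were 130 to 565 CPM after PBS, 204 to 635 CPM after the control gRNA and 165 to 453 CPM after the Pdx1 gRNA, with 4 genes called higher after the control gRNA and 0 after the Pdx1 gRNA. Sums over 14 T and NK cell markers were 6.84 to 15.3, 13.4 to 25.6 and 5.82 to 15.3 CPM, with 2 and 0 of the 12 testable called higher. Over all genes 16.3% were called higher after the control gRNA and 11.7% after the Pdx1 gRNA, so the T and NK cell count is near that share. Without PBS libraries 2 and 3, 0 genes of these 2 lists and 0 cholangiocyte markers were called higher, and the median log2 fold changes after the control gRNA went from 0.58 to 0.19 for macrophages and monocytes, from 0.75 to 0.54 for T and NK cells and from 1.39 to 1.00 for cholangiocytes. Control gRNA library 2 had the highest sums of both lists, 635 and 25.6 CPM, and the lowest mitosis sum of its group. PBS library 4 had the highest macrophage sum of the PBS libraries and the highest mitosis sum. It was also the highest PBS library for the hepatocyte, B and plasma cell, sinusoidal endothelial and stellate cell sums. PBS library 1 was the highest for the T and NK cell, neutrophil, erythroid and cholangiocyte sums. Of 9 erythroid markers, 6 of them testable, 3 fell and 1 rose after the control gRNA. After the Pdx1 gRNA 2 fell and 1 rose. Their sums were 335 to 423 CPM after PBS, 85.7 to 229 CPM after the control gRNA and 117 to 211 CPM after the Pdx1 gRNA. Over all genes 15.8% were called lower after the control gRNA and 10.4% after the Pdx1 gRNA. After the control gRNA and the Pdx1 gRNA, 2 and 4 of 8 sinusoidal endothelial markers fell and 2 and 1 of 8 stellate cell and fibroblast markers fell, while 0 of the 7 testable B and plasma cell markers and 0 of the 3 testable neutrophil markers were called in either. No marker on any list was at 0 in all 12 libraries.

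Other genes of the cell cycle were described from 4 lists. A further 50 periodic mitosis genes, such as spindle and centromere proteins, were measured, 49 of them testable: 43 rose and 1 fell after the control gRNA, with a median log2 fold change of 1.76, and 35 rose and 1 fell after the Pdx1 gRNA, with a median of 1.59. Without PBS libraries 2 and 3 the calls were 24 and 12 higher with 0 lower, and the medians 1.44 and 1.23. Over all genes 16.3% rose and 15.8% fell after the control gRNA, and 11.7% and 10.4% after the Pdx1 gRNA. In the setting without those libraries 6.91% and 4.5% of all genes were called higher. Cenph, a constitutive kinetochore protein, had 0.3, 0.19, 0.41 and 0.358 CPM in PBS libraries 1 to 4, 2.35, 2.09, 2.15 and 2.05 CPM after the control gRNA and 2.43, 2.21, 1.74 and 2.03 CPM after the Pdx1 gRNA, and rose by 2.75 ± 0.30 (SE, edgeR adjusted p = 1.55e-04). Kif22, a chromosome-binding motor, rose by 2.71 ± 0.36 (SE, edgeR adjusted p = 4.28e-04), and Pimreg by 4.0 ± 0.57 (SE, edgeR adjusted p = 6.29e-04). Cks2, a small CDK-binding protein, rose by 0.87 ± 0.17 (SE, edgeR adjusted p = 0.00246). The gene that fell was Hjurp, the chaperone of CENP-A, at -0.62, named after its values were seen.

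Subunits of the anaphase-promoting complex and of cohesin act in mitosis but are made throughout the cell cycle. They were listed together with cohesin regulators, Fzr1, an activator of the anaphase-promoting complex, and the checkpoint genes Bub3 and Mad1l1. Genes of this list were called in both directions, and those that fell all belonged to cohesin or its regulators. Of 25, 3 rose and 6 fell after the control gRNA, with a median log2 fold change of -0.03, and 3 rose and 4 fell after the Pdx1 gRNA, with a median of 0.03. Over all genes 16.3% rose and 15.8% fell after the control gRNA, and 11.7% and 10.4% after the Pdx1 gRNA. The 6 that fell after the control gRNA were Smc1a, Stag2, Nipbl, Wapl, Pds5a and Pds5b, grouped here after their values were seen. Smc3, Rad21 and Stag1, also of cohesin, had -0.36, -0.22 and -0.14, which did not pass. The 3 that rose were Anapc4, Anapc16 and the checkpoint gene Bub3. After the Pdx1 gRNA the 4 that fell were Smc1a, Stag2, Nipbl and Pds5b. The calls without PBS libraries 2 and 3 were 1 higher and 5 lower, and 1 and 1. Of the 16170 genes tested in that setting, 1118 were higher and 1140 lower after the control gRNA. After the Pdx1 gRNA the numbers were 728 and 549. Pds5b, a cohesin regulator, had 23.9, 26.7, 24.8 and 26.9 CPM in PBS libraries 1 to 4, 17, 15.7, 14.2 and 14.7 CPM after the control gRNA and 18, 16.7, 20.1 and 18.1 CPM after the Pdx1 gRNA, with every control gRNA library below every PBS library, and fell by 0.73 ± 0.11 on the log2 scale (SE, edgeR adjusted p = 9.41e-04). Smc1a, a core cohesin subunit, fell by 0.67 ± 0.13 (SE, edgeR adjusted p = 0.00272). Cdc26, a subunit of the complex, had -0.08, which did not pass. The CHR share of this list was 19% of 21 windows and its CCAAT share 47.6%, against 80.6% and 75% for the mitosis genes. The CCAAT share was 76.7% for the further periodic mitosis genes, 70.4% for DNA replication and S phase and 61.9% for regulators upstream of mitosis. The CHR shares of those lists were 67.4%, 33.3% and 28.6%. A high CCAAT share was therefore not particular to the mitosis genes.

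Of 35 genes of DNA replication and S phase, 23 rose and 1 fell after the control gRNA, with a median log2 fold change of 1.00, and 24 rose and 0 fell after the Pdx1 gRNA, with a median of 1.27. Leaving out PBS libraries 2 and 3 gave 16 higher and 1 lower, and 18 and 0, with medians of 1.04 and 1.13. Over all genes 16.3% rose and 15.8% fell after the control gRNA, and 11.7% and 10.4% after the Pdx1 gRNA. In the setting without those libraries 6.91% and 4.5% of all genes were called higher. Cdc6, which loads the replicative helicase, had 0.3, 0.285, 0.205 and 0.429 CPM in PBS libraries 1 to 4, 2.24, 2.71, 2.28 and 2.55 CPM after the control gRNA and 7.35, 4.64, 3.4 and 3.66 CPM after the Pdx1 gRNA. It rose by 2.94 ± 0.35 (SE, edgeR adjusted p = 2.47e-04) after the control gRNA and 3.91 ± 0.35 (SE, edgeR adjusted p = 6.28e-05) after the Pdx1 gRNA. Gins2, part of the helicase, rose by 2.91 and 2.60. Pole, a replicative polymerase subunit, rose by 1.19 ± 0.32 (SE, edgeR adjusted p = 0.021) after the Pdx1 gRNA and had 0.55 after the control gRNA, which did not pass. Between the gRNAs the median of this list was 0.28 and that of the mitosis genes -0.30, with 0 calls in either.

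Of 30 regulators that act upstream of mitosis, 12 rose and 2 fell after the control gRNA, with a median log2 fold change of 0.37, and 14 rose and 2 fell after the Pdx1 gRNA, with a median of 0.48. Leaving out PBS libraries 2 and 3 gave 6 higher and 2 lower, and 5 and 0, with medians of 0.40 and 0.45. Over all genes 16.3% rose and 15.8% fell after the control gRNA, and 11.7% and 10.4% after the Pdx1 gRNA. In the setting without those libraries 6.91% and 4.5% of all genes were called higher. The list holds inhibitors of the cycle as well as genes that drive it, so its counts give no direction for the cycle. Cdkn1a, which encodes the CDK inhibitor p21 and slows the cycle, had 6.89, 5.32, 4.1 and 7.8 CPM in PBS libraries 1 to 4, 83.5, 47.5, 77.7 and 51.6 CPM after the control gRNA and 57.7, 93.2, 39.2 and 136 CPM after the Pdx1 gRNA. All 8 virus libraries lay far above the 4 PBS libraries, and it rose by 3.42 ± 0.38 (SE, edgeR adjusted p = 1.60e-04) and 3.75 ± 0.38 (SE, edgeR adjusted p = 1.20e-04). Mybl1, a relative of B-Myb, rose by 3.54 ± 0.42 (SE, edgeR adjusted p = 2.38e-04) and 3.25 ± 0.42 (SE, edgeR adjusted p = 5.68e-04). Wee1, the kinase that restrains CDK1, had 0.38 after the control gRNA, which did not pass, and rose by 0.96 ± 0.18 (SE, edgeR adjusted p = 0.00344) after the Pdx1 gRNA. E2f4, a repressor in quiescent cells, had 0.15 and rose by 0.44 ± 0.12 (SE, edgeR adjusted p = 0.0209). Between the gRNAs no gene of the 4 lists was called.

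**Figure D5:**
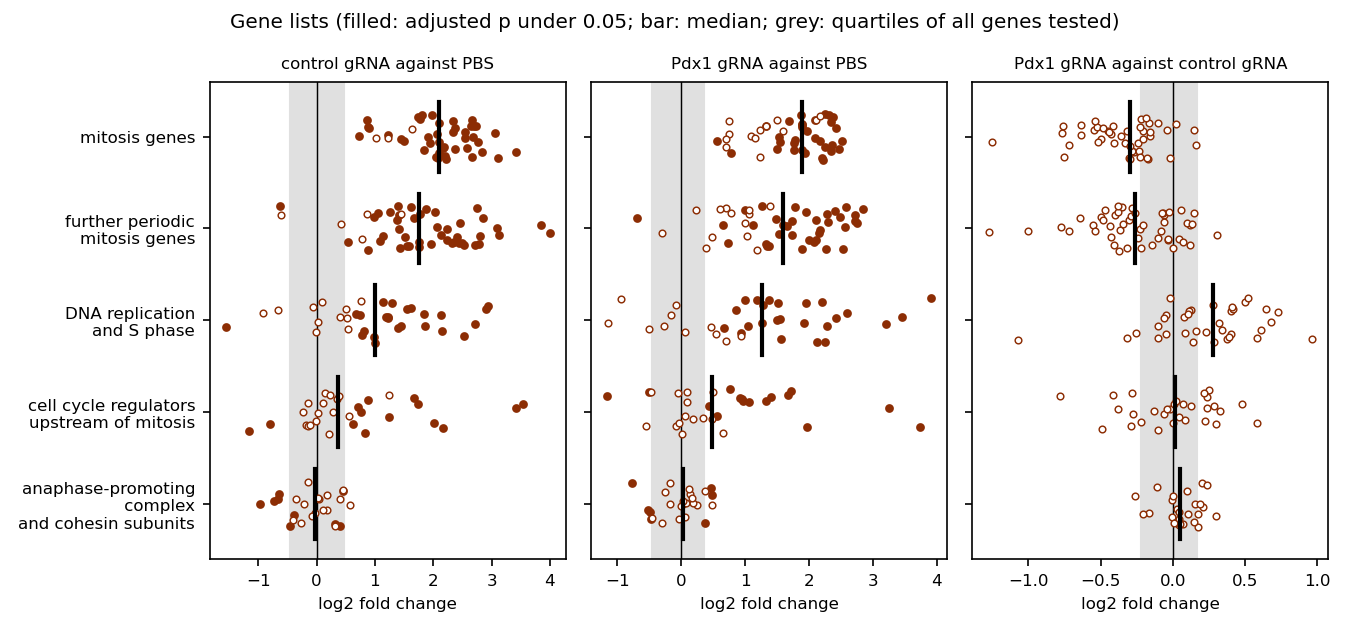
Log2 fold changes of the mitosis genes and of 4 further cell cycle lists in the 3 comparisons; points are genes (vertical scatter has no meaning), filled where the edgeR adjusted p is under 0.05, bars are list medians and the grey band runs between the quartiles of all genes tested. Against PBS with the control gRNA the medians are 2.11, 1.76, 1.00, 0.37 and -0.03 from top to bottom, and no point is filled between the gRNAs.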

How the data were processed

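Liver polyA RNA was sequenced in 12 libraries, 4 per group. The authors deposited raw read counts per gene, which per the file headers came from featureCounts 1.4.6-p4 on GENCODE M13 exons with both mates mapped and strand ignored. Per the submitters' processing notes, Trimmomatic 0.32, STAR 2.4.1a, DESeq2 1.22.0 and R 3.5.1 were used with GRCm38. From these counts, edgeR 4.0.16 (R 4.3.3) fitted all 12 libraries with TMM scaling, filterByExpr (minimum count 10) and its robust quasi-likelihood test, two-sided, with Benjamini-Hochberg adjustment over 15219 genes and calls at an adjusted p under 0.05. The standard error is the absolute log2 fold change divided by the square root of F. Symbols matched 50376 of 50600 identifiers. The 45 mitosis genes and the lists were chosen with earlier results of these data known. Values by library were printed for Cdk1, Top2a, Mki67, Foxm1 and the 2 genes with the highest mean CPM in each role group; further genes were named by smallest p, from each of 4 lists by the 2 smallest p-values in 2 comparisons. The procedure was tested on simulated data. Alternatives were other scaling factors and filters, DESeq2 1.42.0, limma-voom (limma 3.58.1), a fit without robust estimation, only the 8 libraries compared, a replicate block, leaving out each library, and leaving out PBS libraries 2 and 3.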

Additional observations from a re-analysis of the deposited data

Results flagged for a closer look

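A library far from the other 3 of its group was looked for in 72 sets of 4 values, and chance alone marks about 1 in 20. In 5 of the 6 found it was PBS library 4. Top2a had 9.16 CPM there and 1.95 to 2.34 CPM in the other PBS libraries, Cdc20 7.51 against 0.512 to 1.2 CPM, Racgap1 5.37 against 0.855 to 1.5 CPM, and Ect2 5.8 against 1.23 to 1.86 CPM. The summed level of the central spindle and cytokinesis genes was 28.3 CPM in that library and 6.08 to 8.87 CPM in the others. That sum contains Racgap1 and Ect2, so these 5 are not independent of each other. The sixth was Ccnb2 in Pdx1 gRNA library 4, with 7.06 CPM against 11.0 to 11.4 CPM in the other Pdx1 gRNA libraries.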

How the results depend on the processing

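No called value changed sign under any alternative run, and the mitosis genes were called lower in 0 cases under each. The number called higher moved by over 1.5 times from 42 and 32 in 2 settings: without PBS libraries 2 and 3 against PBS it was 19 for the control gRNA and 9 for the Pdx1 gRNA, and without PBS library 2 it was 20 with the Pdx1 gRNA. The alternatives that kept all libraries of both groups compared gave 40 to 45 and 24 to 40. Leaving out each library in turn gave 36 to 45 and 20 to 42 genes called higher, with medians of 1.85 to 2.87 and 1.60 to 2.58, and between the gRNAs 0 calls and medians of -0.49 to -0.09. The other alternatives gave medians of 1.49 to 2.43, 1.28 to 2.14 and -0.36 to -0.27. Upper-quartile scaling shifted the median of all genes by 0.10 in the control gRNA comparison and the share of calls that were higher from 50.9% to 61.8%; the mitosis genes all stayed positive against PBS. With the replicate block, 45 and 35 mitosis genes were called higher against PBS and 0 between the gRNAs. Replicate numbers did not pair the libraries: 3 of 12 pairs had a correlation above 0.1 and 2 of 12 libraries correlated best with their own number. For the 24 mitosis genes named with a test, 50 of 72 results kept their side of the threshold without PBS libraries 2 and 3 and 22 calls were lost. Over each library left out, 35 calls were lost and 7 gained, and over the other alternatives 9 were lost and 13 gained, while 9 uncalled values between the gRNAs changed sign. The cause of these shifts was not tested. Depth limits Melk, which had 0 counts in 2 PBS libraries.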
